A study of Mus musculus with 35 samples.

Results

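Blood CD8+ effector memory T cells (Tem, 6 arrays) were set against whole peripheral blood mononuclear cells (PBMC, 3 arrays), which are 9 of the 35 arrays of the series. The arrays were chosen by their titles alone, and every gene with a probe matched to it was examined. All animals were healthy female wild-type mice of strain C57Bl/6, 8 to 16 weeks old, with no treatment given. Tem were CD8b-positive blood cells taken by magnetic selection, followed by a depletion step meant to leave non-naive cells. PBMC were not sorted. For each sample 300 pg of total RNA went through 2 rounds of amplification, labelling with Cy3 and hybridisation to a 1-colour mouse oligonucleotide array. No label ties an array to an animal, so p-values here reflect only how far these samples scatter, and that scatter may be technical.

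Effector memory CD8 T cells circulate through blood and peripheral tissue after an infection or another antigen encounter. They carry the CD8 coreceptor beside the T cell receptor and its CD3 chains, kill target cells with granzymes and perforin, and in the textbook account lack the chemokine receptor CCR7 that naive and central memory cells use to enter lymph nodes. Whole PBMC hold T cells of every kind together with B cells, NK cells, monocytes and dendritic cells, and in preparations from mice also some granulocytes, platelets and red cell precursors. In such bulk samples fewer cells of a type and less RNA per cell cannot be told apart.

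PBMC 1 stood apart from the other 8 arrays. On it 7.80% of probes were marked as well above background in the scanner output, which is 3075 of 39429 probes, against 24.8% on PBMC 2 and 22.2% on PBMC 3. The Tem arrays ranged from 25.6% to 35.5%, with the highest share on Tem 3. Tem had a mean share of 29.4% ± 4.09 (SD, n = 6) and PBMC 18.3% ± 9.15 (SD, n = 3). All 6 Tem arrays lay above all 3 PBMC arrays (two-sided exact permutation test, p = 0.0119, the smallest that 84 splits allow). Without PBMC 1 the difference was 5.89 percentage points (exact permutation test over 28 splits, p = 0.107). The rank correlation across probes of PBMC 1 with any other array of the series was between 0.255 and 0.491, while PBMC 2 and PBMC 3 correlated at 0.926 and Tem arrays with each other at 0.818 to 0.937. Of the probes detected on PBMC 1, 2968 were also detected on PBMC 2 or PBMC 3, and 50 on none of the other 8 arrays. On PBMC 1 no probe for Cd8a, Cd8b1 or any of 19 cytotoxic genes was well above background, and 6 of 29 B cell genes were, against 20 to 22 on PBMC 2 and PBMC 3. Tem 3 differed in another way: its negative control spots averaged 907 intensity units, against 4618 to 5826 on the other Tem arrays. All Tem arrays were read in one scan session and all PBMC arrays in another, and no slide held both, so scan session, slide and group cannot be told apart.

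**Figure D1:**
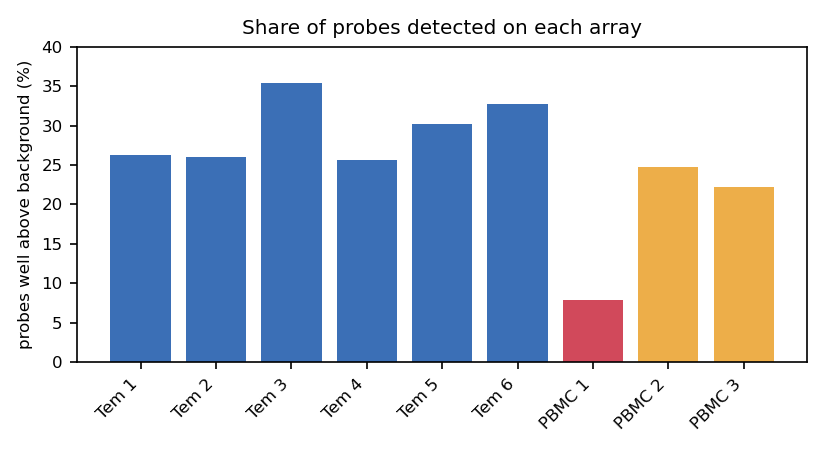
Bars give the percentage of the 39429 probes whose signal counted as well above background (vertical axis) on each of the 6 Tem arrays and 3 PBMC arrays. PBMC 1 stands at 7.80%, below PBMC 3 at 22.2%, and the Tem arrays lie between 25.6% and 35.5%.

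Because of PBMC 1, the comparison is given from all 9 arrays and again without it. Differences are Tem minus PBMC on the log2 scale with their standard error, and a call means an adjusted p under 0.05 in limma. A gene was tested when a probe was well above background on at least 3 Tem or 2 PBMC arrays. A gene that entered through 1 group alone tends by that rule to be higher in it, in every list below. With 9 arrays, 5835 of 8091 genes were called (72.1%): 5088 higher in Tem (62.9%) and 747 lower (9.23%). The median difference over all genes was 2.17. Tem lay above PBMC on every array for 56.9% of genes and below on every array for 8.55%. Without PBMC 1, 2693 of 8030 genes were called (33.5%): 1425 higher (17.7%) and 1268 lower (15.8%). The median difference was then 0.09, and Tem lay above PBMC on every array for 27.3% of genes and below for 28.6%. The sets shared 1420 higher and 574 lower genes, and 1 gene (0.0125%) was called in opposite directions. The split also moved with the scaling: quantile normalization of the 9 arrays gave 2523 higher and 1551 lower with a median of 1.11, and scaling over all probes gave 3156 and 1434 with a median of 0.97. Without PBMC 1 the same settings gave 2485 and 1362 with a median of 0.39, and 2831 and 975 with a median of 0.68. PBMC 1 was the dimmest of the 9 arrays for 79.0% of the genes called higher and for 59.8% of all genes tested. It was the brightest array for 566 of the 747 genes called lower (75.8%), against 14.0% of all genes. Of the 173 lower calls that were not made without PBMC 1, it was the brightest for 172. The fits also differ in scale: a difference between Tem and PBMC 2 and 3 is smaller by 1.35 in the fit without PBMC 1 than the values by array printed here would give.

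**Figure D2:**
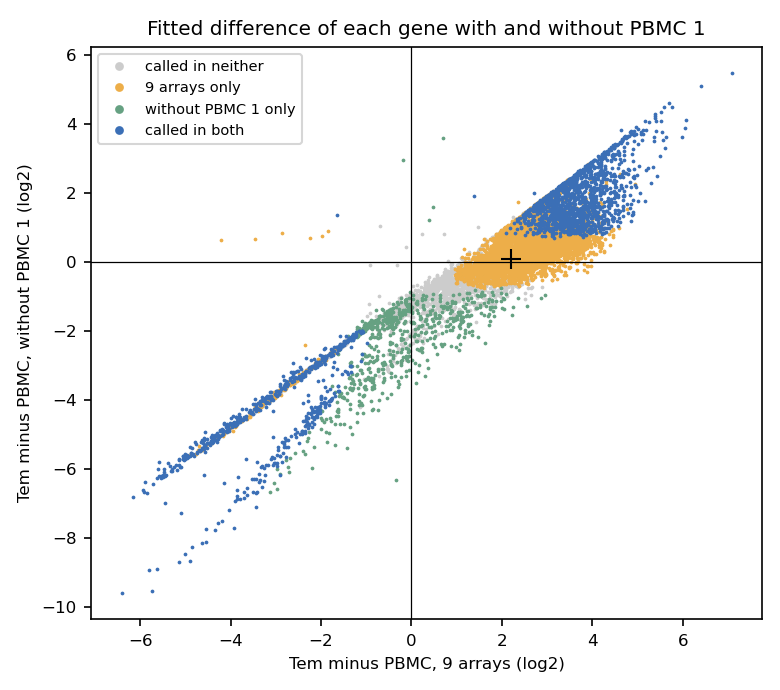
Each point is a gene tested in both fits, with its Tem minus PBMC difference (log2) from 9 arrays on the horizontal axis and without PBMC 1 on the vertical axis, coloured by the fit in which it was called. The black cross marks the medians, near 2.17 and 0.09.

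The 2 chains of the CD8 coreceptor, the molecule used for sorting, were the clearest difference. Cd8b1, on chromosome 6, encodes the CD8 beta chain. On the log2 scale relative to each array's 75th percentile, its signal on the Tem arrays had a lowest value of -0.52, a median of -0.15 and a highest of 1.05. It was -7.55 on PBMC 1, -5.30 on PBMC 2 and -8.30 on PBMC 3. Every Tem array lay above every PBMC array, and among PBMC only PBMC 2 was well above background. Where only some arrays of a group measured a gene, as here, the others entered the fit at their background-level signal, so the fitted size is approximate. The difference was 7.08 ± 0.65 (adjusted p = 0.000538) with 9 arrays and 5.48 ± 0.55 (adjusted p = 0.00035) without PBMC 1. Cd8a, the alpha chain, lay between -0.16 and 1.33 on the Tem arrays with a median of 0.27. Its values were -7.58, -3.56 and -5.56 on PBMC 1, 2 and 3. The groups did not overlap, with differences of 5.98 ± 0.76 (adjusted p = 0.000703) and 3.62 ± 0.40 (adjusted p = 0.000598).

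The T cell receptor complex and its signalling partners were also higher in Tem. Of 20 listed genes 19 were tested, and 19 were called higher with 9 arrays (62.9% of all genes were) and 15 without PBMC 1 (17.7% of all genes). The list's median difference was 4.30, against 2.17 over all genes, and 1.39 against 0.09 without PBMC 1. Cd3e, which encodes the epsilon chain of CD3, ranged from 0.68 to 2.03 on the Tem arrays with a median of 0.83. It was -7.49 on PBMC 1, -1.83 on PBMC 2 and -2.87 on PBMC 3, so Tem lay above PBMC throughout, with differences of 5.05 ± 1.01 (adjusted p = 0.00256) and 1.99 ± 0.26 (adjusted p = 0.00131). Cd3g, the gamma chain, differed by 5.22 ± 0.72 and 2.72 ± 0.25, and the costimulatory receptor Cd6 by 4.97 ± 0.89 and 2.16 ± 0.25. Thy1, a surface glycoprotein of mouse T cells, differed by 4.90 ± 1.25 (adjusted p = 0.00684) and 1.39 ± 0.36 (adjusted p = 0.0201). Themis, a signalling adaptor first known from thymocytes, and Sit1, an inhibitory adaptor, were picked after the values without PBMC 1 were seen. Themis was not well above background on any PBMC array and was at least 4.41-fold higher in Tem with 9 arrays and at least 2.07-fold without PBMC 1, where its adjusted p was 0.00562. Such lower bounds set the Tem mean against the dimmest signal that counted as detected on each PBMC array. For genes lower in Tem the PBMC mean was set against such signals on the Tem arrays. Arrays that missed a gene its group detected entered that group's mean at their background-level signal, so such a bound is approximate. Sit1 differed by 4.30 ± 0.57 with 9 arrays and by 2.59 ± 0.39 (adjusted p = 0.00227) without PBMC 1. Cd3d, the delta chain, differed by 4.84 ± 1.1 and 1.57 ± 0.27 (adjusted p = 0.00404). These genes, with Cd8a and Cd8b1, were called higher in all 7 settings tried without PBMC 1, which change the scaling, the normalization, the arrays or the use of Tem 3. Across these settings 13 to 18 genes of the list were called higher and none lower.

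**Figure D3:**
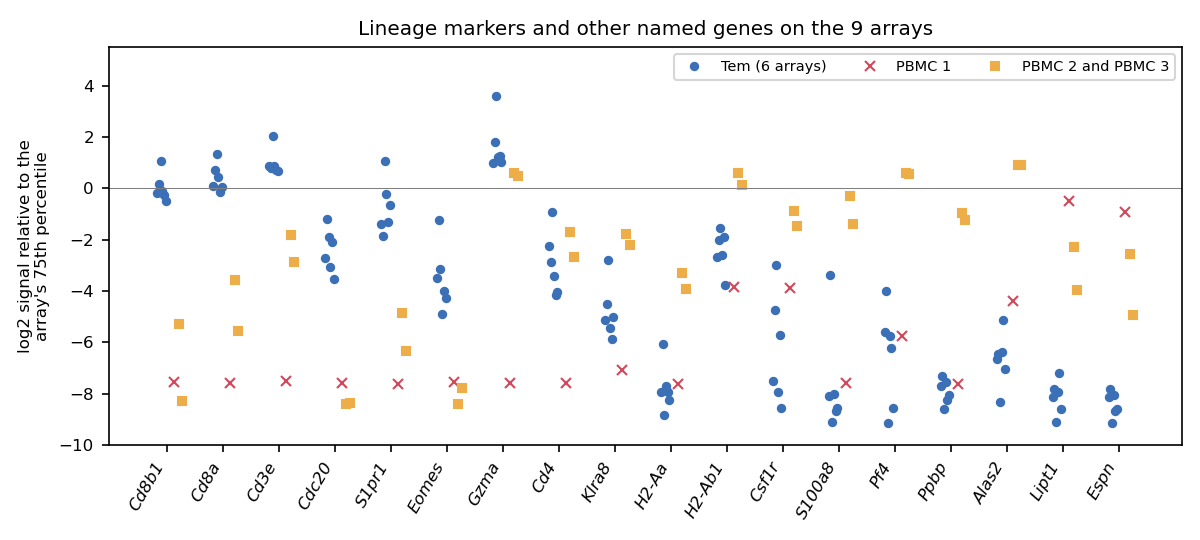
Log2 signal relative to each array's 75th percentile (vertical axis) for 18 named genes, with the 6 Tem arrays as circles, PBMC 1 as a cross and PBMC 2 and PBMC 3 as squares. Cd8b1, Cd8a and Cd3e are higher on every Tem array than on any PBMC array, PBMC 1 sits near -7.5 for most T cell genes, and Lipt1 and Espn are brightest on PBMC 1.

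Genes of killing were called higher in Tem for most members with 9 arrays and for a minority without PBMC 1. Of 19 listed genes 15 were tested. With 9 arrays 13 were called higher and none lower, and without PBMC 1 5 were higher and none lower, beside 62.9% and 17.7% of all genes that were higher. The list medians were 3.81 and 0.98. All 7 settings without PBMC 1 together gave 5 to 8 higher, with the 5 from the main one. The list's summed signal ranged from 11.8 to 47.3 on the Tem arrays, from 4.57 to 5.71 on PBMC 2 and 3, and was 0.149 on PBMC 1. Ctsw (cathepsin W, a protease of cytotoxic lymphocytes) was 0.48 to 1.74 on the Tem arrays with a median of 0.69, and -7.63, -2.0 and -2.34 on PBMC 1, 2 and 3. The groups did not overlap, and the differences were 4.85 ± 1.04 (adjusted p = 0.00349) and 1.68 ± 0.25 (adjusted p = 0.00204). Cst7, which encodes cystatin F, an inhibitor of granule proteases, differed by 4.65 ± 0.78 and 2.13 ± 0.44. Nkg7, a cytotoxic granule membrane protein, differed by 4.86 ± 1.30 (adjusted p = 0.00826) and 1.20 ± 0.32 (adjusted p = 0.022). Serpinb6b, a serpin, differed by 4.30 ± 0.74 (adjusted p = 0.00153) and 2.08 ± 0.55 (adjusted p = 0.0208). The granzyme gene Gzmm, picked after the values without PBMC 1 were seen, differed by 4.09 ± 0.45 and 2.54 ± 0.40 (adjusted p = 0.00282).

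The best known granzymes were less clear. Gzmb ranged from -3.56 to 0.48 on the Tem arrays, with a median of -2.65 and its highest value on Tem 2. It was -7.56, -5.25 and -6.31 on PBMC 1, 2 and 3, with detection on PBMC 2 alone. The difference was 4.30 ± 0.91 (adjusted p = 0.00332) with 9 arrays and 2.35 ± 0.94 (adjusted p = 0.0804) without PBMC 1. Gzma was 0.98 to 3.59 on the Tem arrays with a median of 1.23, against -7.58 on PBMC 1, 0.60 on PBMC 2 and 0.48 on PBMC 3. Its 9-array difference of 3.81 ± 1.53 (adjusted p = 0.0432) rested on PBMC 1: without that array the difference was -0.24 ± 0.48 (adjusted p = 0.704). The 9-array call of Gzma was also lost when any Tem array was left out, and the adjusted p was then at most 0.0878, without Tem 3. Ccl5, a chemokine of memory T cells, gave 3.77 (adjusted p = 0.0181) and 0.33 ± 0.39 (adjusted p = 0.53). Ifng, the gene of interferon gamma, was detected on 5 of 6 Tem arrays and on no PBMC array, with a value of -0.73 on Tem 2 and -6.20 on Tem 6. It was at least 4.61-fold higher in Tem with 9 arrays (adjusted p = 0.00383), and its adjusted p was 0.0613 without PBMC 1.

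Genes typical of naive and central memory cells were not lower in Tem as a group. Ccr7, the receptor for lymph node chemokines, was 1.11, -0.17, 3.56, 1.69, 1.42 and 1.52 on Tem 1 to Tem 6 and -7.61, -0.40 and -1.20 on PBMC 1, 2 and 3. Every Tem array lay above the PBMC arrays, with differences of 4.59 ± 1.37 (adjusted p = 0.0129) and 0.98 ± 0.63 (adjusted p = 0.244). Of 19 tested genes of that list, 18 were called higher and none lower with 9 arrays, and 4 were higher and none lower without PBMC 1, beside 62.9% and 17.7% of all genes. The list medians were 3.68 and 1.22, and 4 to 9 genes were higher across the settings without PBMC 1. Tcf7, which encodes the transcription factor TCF1, differed by 4.65 ± 0.75 and 2.56 ± 0.58 (adjusted p = 0.0121 without PBMC 1). Ccr9, a gut homing receptor, differed by 4.80 ± 0.75 and 2.65 ± 0.64 (adjusted p = 0.0153). Dapl1 differed by 4.95 ± 1.05 (adjusted p = 0.00332) and 2.27 ± 0.87 (adjusted p = 0.0728). The costimulatory receptor Cd27 was detected on all 6 Tem arrays and on no PBMC array, and was at least 3.90-fold higher in Tem with 9 arrays and at least 1.83-fold higher without PBMC 1 (adjusted p = 0.00531). Tcf7, Ccr9 and Cd27 were called higher in all 7 settings without PBMC 1.

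Receptors that guide effector cells between blood and tissue were mixed. Of 18 tested, 15 were higher and none lower with 9 arrays (62.9% of all genes were higher), and 3 were higher and 1 lower without PBMC 1, which is near the 17.7% of all genes. The medians were 2.61 and 0.41. S1pr1, the sphingosine phosphate receptor that lets lymphocytes leave tissue, was -1.85 to 1.05 on the Tem arrays with a median of -1.0. It was -7.63, -4.88 and -6.35 on PBMC 1, 2 and 3, and of these only PBMC 2 was well above background. Tem lay above PBMC on every array, with differences of 5.56 ± 0.75 (adjusted p = 0.000802) and 3.54 ± 0.57 (adjusted p = 0.003). The chemokine receptor Cxcr3 differed by 4.84 ± 0.78 and 2.32 ± 0.42 (adjusted p = 0.00469). Cxcr6 differed by 4.56 ± 0.86 and 1.93 ± 0.58 (adjusted p = 0.034). Il7r, the survival receptor for interleukin 7, differed by 4.21 ± 0.93 (adjusted p = 0.00379) and 1.68 ± 0.69 (adjusted p = 0.0876).

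Other markers of effector memory were not called higher in Tem without PBMC 1. Klrg1, an inhibitory receptor of effector cells, was -3.51 to 0.32 on the Tem arrays with a median of -2.40, against -7.62, -4.27 and -5.69 on the PBMC arrays. Every Tem array lay above every PBMC array, and the gene differed by 3.82 ± 0.99 (adjusted p = 0.00715) and by 1.6 ± 0.90 (adjusted p = 0.184). Cx3cr1, the fractalkine receptor, was -2.57 to 0.41 on the Tem arrays and -5.13, -1.85 and -2.62 on PBMC 1, 2 and 3. The Tem range took in PBMC 2, and the difference was 2.18 ± 0.85 (adjusted p = 0.0382) with 9 arrays and -0.13 ± 0.66 (adjusted p = 0.887) without PBMC 1. Without Tem 2, Tem 3, Tem 5 or PBMC 3 the adjusted p of Cx3cr1 in the larger comparison was 0.0718, 0.0655, 0.058 and 0.0501. S1pr5, a sphingosine phosphate receptor of effector cells, differed by 1.6 ± 0.91 (adjusted p = 0.131) and -0.34 ± 0.86 (adjusted p = 0.774). Cd44, an adhesion receptor that is high on antigen-experienced T cells, was -3.54 to -2.51 on the Tem arrays, -5.14 on PBMC 1, -3.10 on PBMC 2 and -3.30 on PBMC 3. Its sign depended on the setting, at 0.79 ± 0.54 (adjusted p = 0.204) with 9 arrays and -1.20 ± 0.31 (adjusted p = 0.0196) without PBMC 1. On the 9-array scale the Tem means of Cx3cr1, S1pr5 and Cd44 were 1.22, 1.01 and 0.15 above PBMC 2 and 3. The negative signs of these genes without PBMC 1 thus depend on the rescaling. Cd44 was called lower in 5 of the 7 settings without PBMC 1.

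Among transcription factors of effector and memory cells, 13 were tested, of which 8 were higher and none lower with 9 arrays and 3 were higher and 3 lower without PBMC 1, with 3 to 6 higher and 2 to 4 lower across its settings. Both counts of higher genes are near the shares over all genes, 62.9% and 17.7%. Eomes, a T-box factor of memory and cytotoxic cells, was -4.89 to -1.26 on the Tem arrays with a median of -3.73 and its highest value on Tem 2. It was -7.55, -8.42 and -7.78 on PBMC 1, 2 and 3, none of them well above background. Eomes was at least 5.08-fold higher in Tem with 9 arrays (adjusted p = 0.00128) and at least 2.39-fold higher without PBMC 1 (adjusted p = 0.0186). Tox, a factor of chronically stimulated T cells, was at least 4.70-fold (adjusted p = 0.00121) and at least 2.21-fold higher (adjusted p = 0.0162). Foxo1 differed by 3.91 ± 1.01 (adjusted p = 0.00713) and 0.86 ± 0.38 (adjusted p = 0.103), and Batf by 3.53 ± 0.73 (adjusted p = 0.00301) and 1.12 ± 0.39 (adjusted p = 0.0553). Tbx21, which encodes T-bet, lay between -0.16 and 0.37 on the Tem arrays and was 1.25, -0.19 and 0.16 on PBMC 1, 2 and 3. PBMC 1 was thus the brightest array for this gene, and the differences were -0.31 ± 0.45 (adjusted p = 0.552) and -1.23 ± 0.33 (adjusted p = 0.0226). On the 9-array scale the Tem mean was 0.12 above PBMC 2 and 3, so the negative sign without PBMC 1 depends on the rescaling. Tbx21 was called lower in 5 of the 7 settings without PBMC 1.

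Of 9 tested checkpoint and costimulatory receptors, 3 were higher and 2 lower with 9 arrays, and 3 were higher and 3 lower without PBMC 1. Over all genes 62.9% were higher and 9.23% lower with 9 arrays, and 17.7% and 15.8% without PBMC 1. Icos differed by 5.03 ± 0.75 and 2.78 ± 0.50 (adjusted p = 0.00495), and Cd96 by 3.69 ± 0.53 and 1.81 ± 0.28 (adjusted p = 0.0026). Pdcd1, which encodes PD-1, was -3.12, -0.79, -4.26, -5.64, -1.63 and -2.40 on Tem 1 to Tem 6, and 1.01, -0.54 and -0.73 on PBMC 1, 2 and 3. Every Tem array lay below every PBMC array, with differences of -2.89 ± 0.96 (adjusted p = 0.0204) and -3.69 ± 1.23 (adjusted p = 0.047). Without Tem 3 the 9-array difference of Pdcd1 was -2.39 (adjusted p = 0.0572). Ctla4 differed by -2.16 ± 0.74 (adjusted p = 0.0228) and -2.81 ± 0.73 (adjusted p = 0.0197). Its 9-array call was lost without Tem 3 (adjusted p = 0.0589) and without PBMC 2 (adjusted p = 0.0567). PBMC 1 was the brightest array for both genes. Among genes of CD4 and regulatory T cells 8 were tested, 3 higher and 1 lower with 9 arrays and 2 higher and 3 lower without PBMC 1, where the sign of the list's median changed with the scaling. Tnfrsf18, the GITR receptor, differed by 4.5 ± 0.75 and 2.17 ± 0.38 (adjusted p = 0.0044). Tnfrsf4, the OX40 receptor, differed by 2.55 ± 0.89 (adjusted p = 0.0243) and 0.44 ± 0.85 (adjusted p = 0.703). Cd4 itself, the coreceptor of helper T cells, was -4.17 to -0.94 on the Tem arrays and -7.60, -1.70 and -2.68 on PBMC 1, 2 and 3. It differed by 1.04 ± 1.18 (adjusted p = 0.44) with 9 arrays and by -2.11 ± 0.62 (adjusted p = 0.0304) without PBMC 1. On the 9-array scale its difference from PBMC 2 and 3 was -0.76, so the size without PBMC 1 depends on the rescaling. Cd4 was called lower in 5 of the 7 settings without PBMC 1. Another Cd4 probe, well above background on 5 Tem arrays and all 3 PBMC arrays, differed by -0.21 with 9 arrays.

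Genes of the cell cycle were higher in Tem in both fits. Of 17 tested, 17 were called higher with 9 arrays (62.9% of all genes were) and 11 without PBMC 1 (17.7%). The medians were 4.24 and 2.29, against 2.17 and 0.09 over all genes. Of 23 genes with a probe, 16 to 20 were detected on the Tem arrays and 7 or 8 on PBMC 2 and 3. Many thus entered the test through Tem alone, which favours a higher value there. All 7 settings without PBMC 1 together gave 11 to 16 higher and none lower, with the 11 from the main one. The summed signal of the list was 3.11 to 11.8 on the Tem arrays, 0.492 to 0.727 on PBMC 2 and 3 and 0.178 on PBMC 1. Cdc20, the activator of the anaphase-promoting complex, was -3.54 to -1.18 on the Tem arrays with a median of -2.42, and -7.60, -8.42 and -8.35 on PBMC 1, 2 and 3. No PBMC array was well above background, and Cdc20 was at least 10.8-fold higher in Tem with 9 arrays (adjusted p = 0.000553) and at least 5.07-fold higher without PBMC 1 (adjusted p = 0.000834). Birc5 (survivin) was -1.13 to 0.96 on the Tem arrays, and -7.62, -4.27 and -5.34 on the PBMC arrays. Its differences were 5.60 ± 0.72 (adjusted p = 0.000731) and 3.31 ± 0.50 (adjusted p = 0.00228). The cyclin gene Ccna2 was at least 7.15-fold and at least 3.37-fold higher, and Rrm2, a subunit of ribonucleotide reductase, at least 6.87-fold and at least 3.23-fold. Mki67, the Ki-67 antigen, was detected on all 6 Tem arrays, with a highest value of -0.28 on Tem 2 and a lowest of -4.54 on Tem 5. No PBMC array detected it, and it was at least 10.9-fold (adjusted p = 0.00151) and at least 5.15-fold higher (adjusted p = 0.0314). All of these genes were called higher in all 7 settings without PBMC 1.

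Other genes with the largest differences toward Tem were not on a list. H2ac22 and H2ac11, a pair of H2A histone genes on chromosome 13 whose near-identical sequences may share signal, differed by 6.08 ± 0.69 and 4.12 ± 0.57, and by 6.04 ± 0.70 and 3.88 ± 0.48. Rnu2-10, a U2 small nuclear RNA gene with close copies, was at least 23.5-fold and at least 11.1-fold higher. Fam53b was at least 14.5-fold and at least 6.82-fold higher, and Gnai2, which encodes an inhibitory G protein alpha subunit used by chemokine receptors, at least 10.3-fold and at least 4.87-fold. Hid1 differed by 5.63 ± 0.65 and 3.61 ± 0.35, and Btbd11 by 5.53 ± 0.57 and 3.76 ± 0.38. These 7 genes were called in all 7 settings without PBMC 1.

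B cell genes were lower in Tem, and more of them were called once PBMC 1 was left out. Of 29 listed genes 21 were tested. With 9 arrays 8 were lower and 1 was higher (9.23% of all genes were lower), and without PBMC 1 19 were lower and none higher (15.8% of all genes were lower). Their median difference was -1.31 and -4.08, and 19 were lower in each setting tried without PBMC 1. Some B cell signal was present in Tem: 10 to 16 of 29 genes were detected on the Tem arrays, and the part of this in the results was not tested. Blnk, the adaptor of the B cell receptor, was -5.54 to -4.04 on the Tem arrays and -3.08, -0.87 and -1.25 on the PBMC arrays, with no overlap, and differed by -3.06 ± 0.60 and -5.08 ± 0.39. Cr2, the complement receptor CD21, was at least 4.72-fold and at least 24.5-fold lower. Ebf1, a transcription factor of B cell identity, differed by -3.05 ± 0.52 and -4.32 ± 0.68. Ms4a1, which encodes CD20, was detected on 5 of 6 Tem arrays and differed by -1.78 ± 1.02 (adjusted p = 0.134) and -4.61 ± 0.89 (adjusted p = 0.00629). The signal chain gene Cd79a was not well above background on any of the 9 arrays and was not tested.

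MHC class II genes, through which B cells, monocytes and dendritic cells present peptide to CD4 T cells, were lower as well. Of 13 tested, 3 were lower and 1 higher with 9 arrays, and 11 were lower and none higher without PBMC 1. Over all genes 9.23% and 15.8% were lower. The medians were -0.74 and -2.41, and 7 to 12 genes were lower across the settings without PBMC 1. H2-Aa, the alpha chain of the class II molecule I-A, lay between -8.83 and -6.08 on the Tem arrays, none well above background, and was -7.63, -3.30 and -3.92 on PBMC 1, 2 and 3. It was at least 2.20-fold lower with 9 arrays (adjusted p = 0.0173) and at least 14.2-fold lower without PBMC 1 (adjusted p = 0.0013). Without Tem 3 the 9-array adjusted p of H2-Aa was 0.0683. H2-Ab1, the I-A beta chain, was -3.78 to -1.54 on the Tem arrays, all of them well above background, and -3.85, 0.58 and 0.13 on the PBMC arrays. It differed by -1.37 ± 0.91 (adjusted p = 0.189) and -4.12 ± 0.45 (adjusted p = 0.000525). H2-Eb1, the I-E beta chain, differed by -0.74 ± 1.28 (adjusted p = 0.616) and -4.30 ± 0.52 (adjusted p = 0.000875). Cd74, the invariant chain, differed by -1.07 (adjusted p = 0.399) and -4.38 ± 0.44 (adjusted p = 0.00035). H2-DMb1, a chain of the peptide exchange factor, differed by -2.83 ± 0.87 (adjusted p = 0.0148) and -5.26 ± 0.59 (adjusted p = 0.000608). Its 9-array call was lost without PBMC 2 (adjusted p = 0.0609) and without PBMC 3 (adjusted p = 0.0568). The costimulatory receptor gene Cd40 was at least 1.20-fold and at least 5.5-fold lower. Cd86, a costimulatory ligand, went the other way with 9 arrays, at least 1.20-fold higher (adjusted p = 0.00634), with an adjusted p of 0.0666 without PBMC 1.

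Promoters of 3 of these genes are shown because class II genes are known to share the Y box, a short element bound by the factor NF-Y. The windows of 300 bases come from RefSeq with build GRCm38.p6, lie mostly upstream of the gene's start with 50 bases after it, and run 5′ to 3′ on the gene's strand. The windows are chr17:34287774-34288073 on the minus strand for H2-Aa, chr17:34305617-34305916 on the plus strand for H2-Eb1 and chr17:34152941-34153240 on the plus strand for H2-DMb1. Capitals mark CTGATTGG in H2-Aa and H2-Eb1 and its core ATTGG, which lies within the longer motif, in H2-DMb1.
H2-Aa: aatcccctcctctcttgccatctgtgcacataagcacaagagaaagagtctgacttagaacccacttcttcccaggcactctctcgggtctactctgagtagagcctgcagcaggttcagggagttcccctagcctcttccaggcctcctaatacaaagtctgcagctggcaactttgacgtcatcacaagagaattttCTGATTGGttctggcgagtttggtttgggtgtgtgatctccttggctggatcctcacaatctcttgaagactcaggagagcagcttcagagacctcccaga
H2-Eb1: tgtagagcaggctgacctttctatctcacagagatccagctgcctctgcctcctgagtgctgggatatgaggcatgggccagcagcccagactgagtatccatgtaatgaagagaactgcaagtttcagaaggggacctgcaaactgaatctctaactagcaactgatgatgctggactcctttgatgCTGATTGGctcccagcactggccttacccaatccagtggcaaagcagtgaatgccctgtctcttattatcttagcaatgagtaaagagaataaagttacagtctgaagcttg
H2-DMb1: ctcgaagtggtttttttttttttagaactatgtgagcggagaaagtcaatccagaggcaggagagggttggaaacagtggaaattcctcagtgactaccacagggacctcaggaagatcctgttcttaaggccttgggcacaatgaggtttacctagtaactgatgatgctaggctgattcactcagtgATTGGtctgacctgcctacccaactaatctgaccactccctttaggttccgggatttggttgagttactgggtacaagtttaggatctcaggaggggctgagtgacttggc
The motif begins at position -51 in H2-Aa, -62 in H2-Eb1 and -61 in H2-DMb1, counted from the gene's start. A window was used for 10 of the listed genes, and Cd74 and H2-Ab1 were not among them. Windows on the chromosome of Cd74 were left out for the listed genes and not from the comparison over all windows. The counts and the shares were thus not drawn alike. A gene counted if any of its windows (11 in all) held the motif, while the shares are per window. CTGATTGG, searched on both strands, was in 3 of these 10 genes and in 4.10% of all 32851 windows. ATTGG was in 7 of the 10 genes and in 37.4% of all windows. A match describes the letters of these windows and no more.

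**Figure D4:**
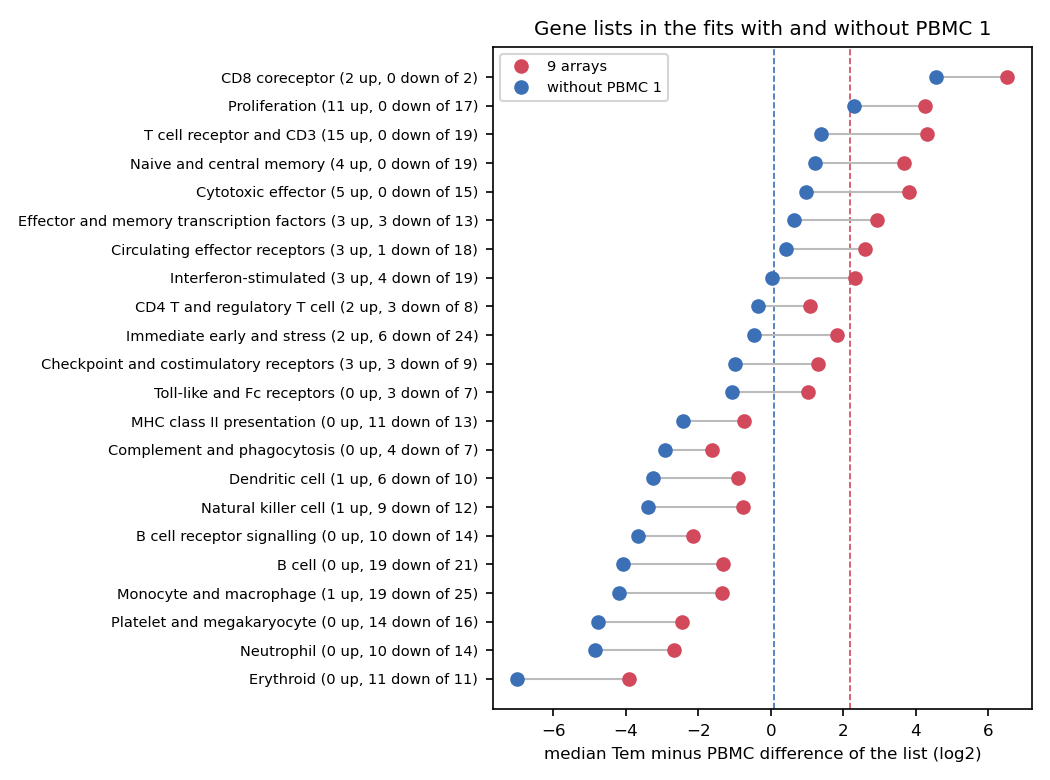
Median Tem minus PBMC difference (log2, horizontal axis) of each gene list with 9 arrays (red) and without PBMC 1 (blue), with dashed lines at the medians of all genes, 2.17 and 0.09. Labels give the genes called higher and lower of those tested without PBMC 1, and each list of B cells, NK cells, myeloid cells, platelets and erythroid cells lies left of the line of its own fit, while the CD8 coreceptor, proliferation and T cell receptor lists lie right of it.

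NK cell genes were mixed, and cytotoxic T cells are known to share several of them. Of 12 tested, 2 were higher and none lower with 9 arrays, and 1 was higher and 9 lower without PBMC 1. Over all genes 62.9% were higher and 9.23% lower with 9 arrays, and 17.7% and 15.8% without PBMC 1. The medians were -0.76 and -3.39, with 9 or 10 lower across the settings without PBMC 1. NK genes were detected for 6 to 10 of 20 on the Tem arrays, for 12 to 14 on PBMC 2 and 3 and for none on PBMC 1. Klrd1 (CD94), which CD8 T cells also carry, was higher at 3.90 ± 0.79 (adjusted p = 0.00269) and 1.32 ± 0.27 (adjusted p = 0.00825). It was called in 6 of the 7 settings without PBMC 1 and missed the threshold with 34 arrays in the fit (adjusted p = 0.189). The NK receptor gene Klra8 was -5.88 to -2.78 on the Tem arrays and -7.09, -1.78 and -2.20 on PBMC 1, 2 and 3. PBMC 1 lay below all Tem arrays and PBMC 2 and 3 lay above them, and the differences were -1.10 ± 1.09 (adjusted p = 0.38) and -4.15 ± 0.54 (adjusted p = 0.00116). Members of the Klra family are close copies and may share signal. The signalling adaptors Fcer1g and Tyrobp, which myeloid cells also use, differed without PBMC 1 by -5.31 ± 0.68 (adjusted p = 0.00111) and -4.48 ± 0.31 (adjusted p = 7.86e-05). They and Klra4, at -5.18 ± 0.66 (adjusted p = 0.0011), were picked after the values were seen. With 9 arrays Fcer1g, Tyrobp and Klra4 differed by -1.70 (adjusted p = 0.28), -1.62 (adjusted p = 0.117) and -2.30 (adjusted p = 0.0512). Klrb1c (NK1.1) differed by -0.41 ± 0.72 (adjusted p = 0.623) and -2.68 ± 0.45 (adjusted p = 0.00348). Ncr1, the defining NK receptor gene, was detected on 2 Tem arrays and on PBMC 2 and was not tested.

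Monocyte and macrophage genes were lower in Tem. Of 25 tested, 9 were lower and 1 higher with 9 arrays, and 19 were lower and 1 higher without PBMC 1. Over all genes 9.23% and 15.8% were lower. The medians of the list were -1.36 and -4.19. Settings without PBMC 1 gave 17 to 23 lower. Of 40 genes, 9 to 16 were detected on the Tem arrays and 26 on PBMC 2 and 3, and the summed signal overlapped, at 7.60 to 12.6 on the Tem arrays and 10.0 to 11.7 on PBMC 2 and 3. Csf1r, the receptor for macrophage colony-stimulating factor, was -7.49, -4.75, -2.99, -7.94, -5.73 and -8.55 on Tem 1 to Tem 6 and -3.90, -0.90 and -1.47 on PBMC 1, 2 and 3. Tem 3 lay above PBMC 1, and every other Tem array lay below all PBMC arrays. Csf1r differed by -4.15 ± 1.18 (adjusted p = 0.0106) and -6.41 ± 1.18 (adjusted p = 0.00517). Clec4a1, a lectin of myeloid cells, was at least 4.25-fold and at least 17.4-fold lower. Sirpa, the receptor for CD47, was picked after its values were seen and was at least 2.61-fold and at least 18.2-fold lower (adjusted p = 3.12e-05 without PBMC 1). Itgam (CD11b) was the listed gene called higher, at 3.61 ± 0.76 and 1.34 ± 0.45 (adjusted p = 0.0468). Another Itgam probe that was well above background on 5 Tem arrays and all 3 PBMC arrays differed by -3.18 with 9 arrays, so the probes of this gene disagree. Lyz2, a monocyte and neutrophil lysozyme, was not well above background on any of the 9 arrays.

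Neutrophil genes were lower as well, with 7 of 14 tested lower and none higher with 9 arrays and 10 lower and none higher without PBMC 1. Over all genes 9.23% and 15.8% were lower. S100a8 was not well above background on Tem 1, 3, 4, 5 and 6, where it lay between -9.11 and -8.00. It was -3.40 on Tem 2, and -7.57, -0.31 and -1.41 on PBMC 1, 2 and 3. S100a8 and S100a9 encode the calcium-binding proteins that form calprotectin. With only Tem 2 measured among Tem, S100a8 had approximate differences of -4.54 ± 1.59 (adjusted p = 0.0251) and -8.13 ± 1.40 (adjusted p = 0.00395), and its 9-array call was lost without Tem 3 (adjusted p = 0.079). S100a9 was -1.43 on Tem 2, -5.78 on Tem 1 and at most -7.97 on the other Tem arrays, against -5.14, 0.85 and 0.41 on PBMC 1, 2 and 3. It differed by -5.63 ± 1.76 (adjusted p = 0.0157) and -8.90 ± 1.89 (adjusted p = 0.00918). Without Tem 3, PBMC 2 or PBMC 3 its 9-array adjusted p was 0.0518, 0.0554 and 0.0577. Retnlg, a resistin-like gene, was at least 4.70-fold and at least 43.5-fold lower, and Il1b, the interleukin 1 beta gene, at least 6.28-fold and at least 62.0-fold lower. Dendritic cell genes had 3 higher and 3 lower of 10 tested with 9 arrays, and 1 higher and 6 lower without PBMC 1. The shares over all genes were 62.9% higher and 9.23% lower, and 17.7% and 15.8% without PBMC 1. Ly6d, a surface antigen that B cells share, differed by -2.22 ± 0.58 (adjusted p = 0.00763) and -4.20 ± 0.46 (adjusted p = 0.000527). Bst2 differed by 2.76 ± 0.71 (adjusted p = 0.00695) and 0.34 ± 0.36 (adjusted p = 0.467). Xcr1 differed by -4.74 ± 1.34 (adjusted p = 0.0104) and -5.50 ± 1.81 (adjusted p = 0.0455), and it was brightest on PBMC 1, at 0.49.

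Platelet genes were lower in Tem. Of 16 tested, 10 were lower with 9 arrays (9.23% of all genes were) and 14 without PBMC 1 (15.8%). None was higher in either fit, and the medians were -2.45 and -4.77. Of 20 genes with a probe, 5 to 9 were detected on the Tem arrays and 16 on PBMC 2 and 3. Several thus entered the test through PBMC alone, which favours a lower value in Tem. The summed signal was 0.28 to 0.45 on the Tem arrays, 1.06 on PBMC 1 and 4.12 to 4.89 on PBMC 2 and 3. Ppbp, a platelet chemokine, was -8.61 to -7.32 on the Tem arrays with a median of -7.87, none well above background, and -7.62, -0.97 and -1.24 on PBMC 1, 2 and 3. PBMC 1 lay within the Tem range. Ppbp was at least 6.98-fold lower in Tem with 9 arrays (adjusted p = 0.00753), an approximate bound since PBMC 1 entered at background level. Without PBMC 1 it was at least 80.1-fold lower (adjusted p = 5.29e-05). Pf4, platelet factor 4, was well above background on 3 of 6 Tem arrays, where its values ranged from -9.15 to -3.98, and was -5.76, 0.60 and 0.54 on the PBMC arrays. It differed by -5.00 ± 1.49 (adjusted p = 0.0126) and -8.46 ± 1.35 (adjusted p = 0.00282), and without PBMC 3 the 9-array difference was -3.96 (adjusted p = 0.0538). Gp6, the platelet collagen receptor, was -8.91 to -7.53 on the Tem arrays and -1.35, -2.27 and -3.39 on PBMC 1, 2 and 3, and was at least 13.4-fold and at least 24.2-fold lower. Gp9, a chain of the von Willebrand factor receptor, was at least 3.56-fold and at least 27.9-fold lower. Treml1, a receptor of platelet granules, differed by -4.58 ± 0.60 (adjusted p = 0.000747) and -6.19 ± 0.80 (adjusted p = 0.00116).

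Erythroid genes had the lowest median of the larger lists. Of 11 tested, 8 were lower with 9 arrays (9.23% of all genes were) and 11 without PBMC 1 (15.8%), with none higher. The medians were -3.92 and -6.99. Of 21 genes with a probe, 4 to 9 were detected on the Tem arrays and 11 to 13 on PBMC 2 and 3. Several thus entered the test through PBMC alone, which favours a lower value in Tem. Alas2, the first enzyme of heme synthesis in red cell precursors, was -8.34 to -5.11 on the Tem arrays and -4.39, 0.92 and 0.91 on the PBMC arrays, with no overlap. It differed by -5.80 ± 1.11 (adjusted p = 0.00222) and -8.92 ± 0.86 (adjusted p = 0.00033). Slc4a1, the anion exchanger band 3, was at least 7.58-fold and at least 89.7-fold lower. Fech, the last enzyme of heme synthesis, was detected on all 6 Tem arrays and differed by -2.27 (adjusted p = 0.0175) and -4.74 ± 0.30 (adjusted p = 5.29e-05). Its 9-array adjusted p was 0.0502 without Tem 3, 0.0787 without PBMC 2 and 0.0771 without PBMC 3.

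Globin genes differed among themselves on PBMC 1. The beta globin gene Hbb-bt was 0.39 on PBMC 1, 0.96 on PBMC 2 and 0.98 on PBMC 3, and -8.40 to -1.61 on the Tem arrays. It differed by -5.45 ± 1.34 (adjusted p = 0.00596) and -6.99 ± 1.64 (adjusted p = 0.0133). The alpha globin gene Hba-a2 was 2.05 on PBMC 1, its highest value on the 9 arrays, and -2.32 to 1.26 on the Tem arrays. It differed by -1.63 ± 0.79 (adjusted p = 0.0799) and -2.67 ± 0.87 (adjusted p = 0.0441), and was called in 3 of the 7 settings without PBMC 1. Hba-a1 was -4.15 to -0.06 on the Tem arrays and -1.85, 1.13 and 1.40 on PBMC 1, 2 and 3, with differences of -2.36 ± 0.98 (adjusted p = 0.0479) and -4.74 ± 1.01 (adjusted p = 0.00909). Its 9-array call was lost without Tem 1, 2, 3 or 6 and without PBMC 2 or PBMC 3, with adjusted p-values of 0.0635 to 0.177. Hbb-bs was -7.59 on PBMC 1 against -1.56 and -1.14 on PBMC 2 and 3, and differed by -4.34 ± 1.31 (adjusted p = 0.0135) and -7.77 ± 0.99 (adjusted p = 0.00111). Globin genes are near-identical copies, so their probes may share signal. The summed signal of the erythroid list was 6.03 on PBMC 1, 13.3 to 14.5 on PBMC 2 and 3 and 0.50 to 3.98 on the Tem arrays.

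The called genes with the largest differences toward PBMC were partly of this kind and partly not. Among the 12 chosen by rule was Gda, guanine deaminase, which was -9.13 to -7.79 on the Tem arrays and -5.66, 0.15 and -0.42 on PBMC 1, 2 and 3. It was at least 17.2-fold lower with 9 arrays (adjusted p = 0.00134) and at least 157-fold lower without PBMC 1 (adjusted p = 3.12e-05). Like Alas2 and S100a9, it was brighter on PBMC 2 and 3 than on PBMC 1. In contrast, 8 of the 12, Cldn15, Gzf1, Pdlim3, Lipt1, Gp6, Cdkl4, Pir and Espn, were brightest on PBMC 1. Espn, which encodes the actin-bundling protein espin, was -9.15 to -7.80 on the Tem arrays and -0.91, -2.57 and -4.92 on PBMC 1, 2 and 3. It was at least 9.73-fold lower (adjusted p = 0.000802) and at least 12.9-fold lower (adjusted p = 0.000437). Lipt1, a lipoyltransferase gene, was -0.50, -2.27 and -3.96 on PBMC 1, 2 and 3 and at least 14.3-fold and at least 19.9-fold lower. Cdkl4 was at least 17.7-fold and at least 29.0-fold lower. Cldn15, a claudin gene, differed by -6.15 ± 0.86 and -6.82 ± 1.05, Gzf1 by -5.95 ± 0.96 and -6.61 ± 1.20, Pir by -5.62 ± 0.82 and -6.27 ± 1.04 and Pdlim3 by -5.92 ± 1.19 and -6.66 ± 1.58. On Tem 5 Cldn15, Gzf1 and Pdlim3 had their highest Tem values, at -4.48, -4.17 and -3.10. These 11 genes were called lower in all 7 settings without PBMC 1.

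Interferon-stimulated and immediate early genes showed no common direction without PBMC 1. Of 19 interferon-stimulated genes tested, 11 were higher and 1 lower with 9 arrays, below the 62.9% of all genes that were higher. Without PBMC 1, 3 were higher and 4 lower, beside 17.7% and 15.8% of all genes. The medians of the fits were 2.31 and 0.03. Rsad2, which encodes the antiviral enzyme viperin, was -7.15 to -5.48 on the Tem arrays and -7.56, -0.23 and -1.06 on PBMC 1, 2 and 3. PBMC 1 lay below the Tem arrays and PBMC 2 and 3 above them, with differences of -3.44 ± 1.30 (adjusted p = 0.0335) and -7.10 ± 0.44 (adjusted p = 5.29e-05). The 9-array call was lost without Tem 2, 3, 4 or 6 and without PBMC 2 or PBMC 3, with adjusted p-values of 0.0547 to 0.161. The guanylate-binding protein gene Gbp2 was higher in Tem, at 4.56 ± 0.59 and 2.72 ± 0.35 (adjusted p = 0.0011). Xaf1, an interferon-induced gene, was detected on all 6 Tem arrays and no PBMC array and was at least 2.06-fold higher with 9 arrays (adjusted p = 0.00128), with an adjusted p of 0.00809 without PBMC 1. Ddx58, the RNA sensor RIG-I, was higher at 3.58 ± 0.70 and 1.20 ± 0.24 (adjusted p = 0.00764), and Zbp1 at 3.47 ± 0.66 with 9 arrays but 1.29 ± 0.45 (adjusted p = 0.0563) without PBMC 1. Another Zbp1 probe, detected on all 9 arrays, differed by 0.13. Of 24 immediate early and stress genes, 11 were higher and 1 lower with 9 arrays, beside 62.9% and 9.23% of all genes. Without PBMC 1, 2 were higher and 6 lower, beside 17.7% and 15.8%. The sign of that list's median without PBMC 1 changed with the scaling. Rgs1, a regulator of G protein signalling, differed by 5.36 ± 0.81 and 3.62 ± 0.88 (adjusted p = 0.0155), and Tnfaip3, the NF-kappaB inhibitor A20, by 4.82 ± 0.94 and 1.93 ± 0.40 (adjusted p = 0.00816). Hsph1, a heat shock protein gene, differed by 4.30 ± 0.83 and 2.26 ± 0.83 (adjusted p = 0.063). Nr4a2, a nuclear receptor gene, was lower at -3.81 ± 0.84 and -4.47 ± 0.95 (adjusted p = 0.00923), and it was brightest on PBMC 1, at -0.01.

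The 6 Tem arrays were not alike. Tem 2 had the lowest value of the 6 for Ccr7, Tcf7, Dapl1, Ccr9 and Il7r, and the highest for Gzmb, Cx3cr1, Tox, Eomes, Ccna2, Ifng and Mki67. The naive and central memory list was detected for 12 of 20 genes on Tem 2 and for 18 or 19 on the other Tem arrays, with a summed signal of 2.40 against 8.03 to 27.9. The summed signal of cytotoxic genes on Tem 2 was 23.3, against 11.8 to 15.4 on Tem 1, 4, 5 and 6 and 47.3 on Tem 3, and that of cell cycle genes was 11.8 against 3.11 to 10.5 on the other arrays. S100a8 and S100a9 were also highest on Tem 2. Tem 3, the array with the lowest negative control signal, had the highest Tem value for Ccr7, Cd3e, Thy1 and Gzma, and the lowest for Zeb2 at -6.84 and Cxcr2 at -6.54. The part of these array differences in the results was not tested, apart from the fits that leave each array out.

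**Figure D5:**
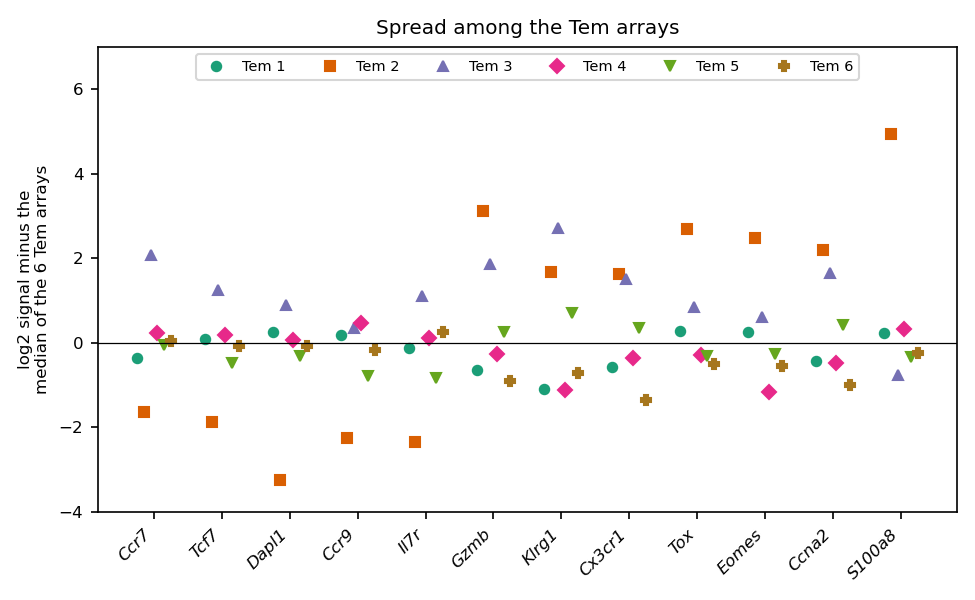
Log2 signal of each Tem array minus the median of the 6 Tem arrays (vertical axis) for 12 genes, with a symbol for each array. Tem 2 lies below the other arrays for Ccr7, Tcf7, Dapl1, Ccr9 and Il7r and above them for Gzmb, Tox, Eomes, Ccna2 and S100a8.

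Other lists are given by counts. Beside them stand the shares over all genes, 62.9% higher and 9.23% lower with 9 arrays, and 17.7% and 15.8% without PBMC 1. Of 3 tested genes of endothelial, epithelial and stromal cells, 2 were higher with 9 arrays and none was called without PBMC 1. B cell receptor signalling genes were 6 lower and 1 higher of 14 tested with 9 arrays, and 10 lower and none higher without PBMC 1. Among Toll-like and Fc receptors, 2 of 7 were higher and 1 was lower with 9 arrays, and 3 were lower and none higher without PBMC 1. Of 7 genes of complement and phagocytosis, 4 were lower in both fits, and 1 was higher with 9 arrays and none without PBMC 1. Of 4 tested plasma cell genes, 1 was higher with 9 arrays and 2 were lower without PBMC 1. Of 3 tested genes of eosinophils, basophils and mast cells, 2 were lower in both fits. Gamma delta and innate-like T cell genes had 2 tested, of which 1 was lower in both fits. The other was higher with 9 arrays, missed the threshold without PBMC 1, and was higher in 6 of the 7 settings tried without that array.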

How the data were processed

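Each deposited scanner file gives an intensity per spot, background-subtracted by Feature Extraction 11.0.1.1 per the file headers (version 10.7 and Partek per the submitters' processing notes). A deposited table gives log2 values, which differed from a quantile normalization of those intensities by a median of at most 0.000764. RefSeq accessions (GRCm38.p6) named 27508 of 39429 probes.

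Log2 intensities were scaled to the 75th percentile over probes well above background on all arrays fitted (1828 probes, or 6508 without PBMC 1). A probe was kept when well above background on at least 3 Tem or 2 PBMC arrays, and the brightest kept probe stood for its gene. Group means were fitted with limma 3.58.1 in R 4.3.3, with Benjamini-Hochberg adjustment over all genes. The code was tested on simulated data. The number of arrays limits the precision.

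Genes named are the 12 called genes with the largest difference in each direction, 4 called members of each list described gene by gene, and a set of sort and lineage markers. Other genes named were picked after their values were seen. A few genes chosen by these rules are not reported here. Pilra is left out because its probe differed between the fits, and small lists are given as counts. Members and lists were chosen with earlier results of these data known. Combining the loss of PBMC 1 with other settings was chosen after seeing the data. Normexp used spot medians.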

Additional observations from a re-analysis of the deposited data

Results flagged for a closer look

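Among 115 quantities (the named genes and the share of probes detected), 17 genes had 1 of the 6 Tem arrays set apart from the rest by more than Dixon's critical value, which chance passes in about 1 of 20 groups. Tem 3 was the array concerned for 12 of the 17. It was highest for Hid1 (0.91), Gnai2 (0.23), Cd3e (2.03), Cd6 (1.21), Thy1 (3.21), Gzma (3.59), Itgam (1.96), Klrd1 (-0.24), Ddx58 (-1.0) and Ccl5 (3.71), and lowest for Zeb2 (-6.84) and Cxcr2 (-6.54), all as log2 signal relative to the array's 75th percentile. Tem 2 was lowest for Dapl1 (-2.61) and highest for S100a8 (-3.40). Tem 5 was highest for Cldn15 (-4.48) and Hbb-bs (-5.25), and Tem 6 was lowest for Zbp1 (-3.64).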

How the results depend on the processing

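Over all genes, quantile normalization gave 2523 higher and 1551 lower, the deposited log2 values 2472 and 1492, scaling over all probes 3156 and 1434, and normexp 2633 and 1463. All 35 arrays gave 4772 and 1232, the slide as a random block 4768 and 1232, 1 weight per group 3725 and 307, and array weights 5496 and 1098. Leaving out 1 array gave 1425 to 5206 higher and 536 to 1268 lower, and a difference in the share of probes detected of 5.89 to 14.4 percentage points. Without PBMC 1 and Tem 3, 1929 were higher and 1768 lower. Without PBMC 1, quantile normalization gave 2485 and 1362, the deposited values 2486 and 1400, scaling over all probes 2831 higher, normexp 2480 and 1552, and 34 arrays 1526 and 1560. The causes were not tested.

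Some genes changed sign. Gzma was -0.24 without PBMC 1, -0.35 without Tem 3 as well, and then -0.089 (quantile), -0.080 (deposited), -0.081 (normexp) and -0.17 (34 arrays). In the first 2 of these settings and the last, Cx3cr1 was -0.13, -0.11 and -0.057 and S1pr5 was -0.34, -0.45 and -0.26. Cd44 was -1.15 (quantile), -1.18 (deposited), -0.41 (all probes) and -0.79 (normexp) with 9 arrays. Without PBMC 1 Cd44 was -1.20, and then -1.03 (without Tem 3), -1.04, -1.01, -0.61, -0.85 and -1.13 (34 arrays). Cd4 was -0.16 (all probes), -0.53 (normexp) and -0.58 (array weights) with 9 arrays. Without PBMC 1 Cd4 was -2.11, and then -2.23 (without Tem 3), -1.87, -1.84, -1.52, -1.78 and -2.04 (34 arrays). Without PBMC 2, Klrb1c was 0.15, H2-Eb1 0.41 and Cd74 0.019, and without PBMC 3 H2-Eb1 was 0.32. Over the fits that leave out 1 array, the values ranged from -0.24 to 5.19 for Gzma, -0.13 to 2.86 for Cx3cr1, -0.34 to 2.24 for S1pr5, -1.20 to 1.17 for Cd44, -2.11 to 2.19 for Cd4, -2.68 to 0.15 for Klrb1c, -4.30 to 0.41 for H2-Eb1 and -4.38 to 0.019 for Cd74.

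The labels do not say whether replicate numbers pair the samples. Deviations from the group mean correlated at 0.15, -0.05 and 0.27 between same-numbered Tem and PBMC arrays. Differently numbered arrays were not compared, so these values cannot decide it. With the number as a replicate block 4521 were higher and 669 lower. Among the values of named genes and list counts in the other settings, 3972 stayed alike. Alike means the same direction and call for a gene, and a change of at most 1.5 times for a list count. For genes, 157 values lost the call, 157 gained it and 37 changed sign. Another 479 list counts moved by over 1.5 times, or to or from 0.

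With 3 PBMC arrays, 1 of them dim, many low genes have only a bound, and scan session cannot be told apart from group.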
